A study of Mus musculus with 8 samples.

Results

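The genes described here are 37 genes of cholesterol and fatty acid synthesis. They were listed by symbol as the pathway served by the sterol regulatory element binding proteins (SREBPs). The 37 were listed without use of their values, but with earlier results of these data known. Their shares set against all genes below are therefore descriptions. They fell into 5 regulators, a sterol branch of 19 genes and a fatty acid branch of 13 genes, and all 37 were among the 18671 genes measured. The cells were BMEL cells, an established line of bipotential mouse embryonic liver cells grown on collagen with serum, IGFII, EGF and insulin. In 4 samples the cells had received pIGrhl2, a plasmid carrying the human GRHL2 coding sequence with a Flag tag, driven by the EF1A promoter and followed by EGFP, and in the 4 control samples they had received the pcDNA3 plasmid (pcDNA). GRHL2 is a grainyhead-like transcription factor of epithelial cells. RNA was taken 48 h after transient transfection from the whole pool of cells, so the share of cells that carried a plasmid was not known, and the plasmids differed by more than GRHL2, so the parts of the insert, the tag, EGFP and the promoter cannot be told apart. The comparison asked what GRHL2 did to transcript levels in these cells.

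Sterol synthesis runs from acetyl-CoA through mevalonate and squalene to lanosterol and then cholesterol. Fatty acid synthesis uses the same acetyl-CoA, which is carboxylated, built into palmitate, lengthened and desaturated. SREBPs are held in the endoplasmic reticulum by Scap and the Insig proteins when sterols are plentiful, and when sterols fall they are cut and enter the nucleus, where SREBP-2 mainly serves the sterol genes and SREBP-1 mainly serves the fatty acid genes. The liver is a main site of both pathways.

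Promoters are shown for 4 genes that rose (Tm7sf2, Mvd, Nsdhl and Acly) and for Hmgcs1, whose promoter was the only member promoter with a match to the sterol regulatory element form searched. Each line gives 250 bases before the annotated start, 5′ to 3′ in the direction of the gene, from RefSeq on GRCm38.p6, with matches to the 4 motif forms found in any member in capitals.
Tm7sf2, chr19:6067851-6068100, strand -: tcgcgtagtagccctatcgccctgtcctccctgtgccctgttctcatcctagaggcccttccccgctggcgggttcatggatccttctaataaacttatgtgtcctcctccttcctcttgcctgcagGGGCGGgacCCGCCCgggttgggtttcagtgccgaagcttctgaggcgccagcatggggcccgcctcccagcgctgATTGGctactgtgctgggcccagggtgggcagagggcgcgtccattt
Mvd, chr8:122443423-122443672, strand -: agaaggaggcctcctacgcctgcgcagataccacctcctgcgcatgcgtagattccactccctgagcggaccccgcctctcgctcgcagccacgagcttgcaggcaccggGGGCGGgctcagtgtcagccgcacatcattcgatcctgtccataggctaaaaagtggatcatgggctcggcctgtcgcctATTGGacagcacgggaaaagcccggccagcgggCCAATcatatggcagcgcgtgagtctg
Nsdhl, chrX:72918271-72918520, strand +: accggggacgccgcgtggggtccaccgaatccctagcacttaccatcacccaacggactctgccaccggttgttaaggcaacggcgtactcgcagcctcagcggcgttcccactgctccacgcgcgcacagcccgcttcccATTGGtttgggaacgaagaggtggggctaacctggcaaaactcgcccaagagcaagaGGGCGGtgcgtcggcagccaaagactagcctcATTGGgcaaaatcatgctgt
Acly, chr11:100528001-100528250, strand -: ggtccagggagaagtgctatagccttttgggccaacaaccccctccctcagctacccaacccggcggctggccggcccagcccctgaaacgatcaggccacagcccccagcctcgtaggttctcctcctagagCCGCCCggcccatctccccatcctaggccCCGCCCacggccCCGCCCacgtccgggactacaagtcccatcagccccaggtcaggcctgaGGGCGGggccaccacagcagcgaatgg
Hmgcs1, chr13:119690101-119690350, strand +: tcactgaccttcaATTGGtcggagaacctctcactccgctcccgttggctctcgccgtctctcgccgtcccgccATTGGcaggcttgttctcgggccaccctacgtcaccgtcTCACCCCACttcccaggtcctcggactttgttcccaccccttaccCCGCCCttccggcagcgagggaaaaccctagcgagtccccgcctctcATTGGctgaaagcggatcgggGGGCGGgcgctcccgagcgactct
The forms searched, on both strands, were the sterol regulatory element form TCACNCCAC, the E box CACGTG, the NF-Y box CCAAT, the GC box GGGCGG and the grainyhead form AACNGGTT, and none of these forms contains another. Promoters (250 bases before to 50 after the start, any listed start counted) were found for 30 of the 37 genes. The missing ones were Fdps, Fdft1, Sqle, Stard4, Scd1, Scd2 and Fads1. The NF-Y box was in 25 of 30 (83.3%), against 41.1% of all 27025 genes with a promoter entry and 41.9% of the 12883 that were in the expression table. The GC box was in 24 of 30 (80.0%), against 38.2% of all and 63.1% of those in the table. Within the sterol branch 14 of 15 promoters held the NF-Y box and 14 of 15 the GC box, whereas in the fatty acid branch 7 of 10 held the former and 5 of 10 the latter. The E box was in 6 of 30, against 8.09% of all and 10.8% of those in the table. The sterol regulatory element form was in 1 of 30 (3.33%) and 1.44% of all, and the grainyhead form was in 0 of 30 and 2.35% of all. In the Hmgcs1 promoter the match to the sterol form was TCACCCCAC, which began 137 bases before the start, between NF-Y boxes that began 176 and 45 bases before it. In the Acly stretch shown, the capitals mark 4 GC boxes, and its NF-Y box lay past the start. In GENCODE M21, used below for exon overlaps, the Tm7sf2 gene runs from 6062821 to 6068373. The Tm7sf2 stretch shown lies inside that gene, so the 2 annotations differ on its start. These matches are descriptions of letters in a window, and binding was not measured here.

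Values below are on the log2 scale and per transcript length, so a difference of 1 is a doubling, and differences are pIGrhl2 minus pcDNA. The mouse Grhl2 gene read 6.30, 6.96, 5.65 and 6.05 in pIGrhl2 samples 1 to 4 and 4.68, 4.57, 4.42 and 4.44 in the pcDNA samples, a difference of 1.71 ± 0.22 (SE, adjusted p = 0.001, limma). Reads of the human insert and of the mouse gene were not separated in this value. Hnf4a, a hepatocyte lineage factor, lay between 11.02 and 11.25 in the 8 samples and the biliary keratin Krt19 between 14.86 and 15.25, while the blood marker Ptprc lay between 0.83 and 0.98. Dlk1, Col1a2 and Adgre1 were not analysed here. Depth was not known, and low genes have shrunken differences on this scale. In bulk RNA, a change in the number of cells of a type and a change in RNA per cell cannot be told apart.

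Genes of both synthesis branches stood higher in pIGrhl2 cells, by small amounts. Of the 37 genes, 7 rose: Tm7sf2, Mvd, Nsdhl and Acat2 in the sterol branch, and Acly, Acss2 and Acacb in the fatty acid branch. None of the 37 fell (limma, adjusted p under 0.05). The share that rose was 18.9%, against a background of 10.5% of all 18671 genes higher and 5.91% lower. This background was not matched for level. The median gene read 6.419 to 6.455 in the pcDNA samples, and most of the 37 lay above it. At an unadjusted p under 0.05 there were 18 genes (48.6%), all higher, where 31.0% of all genes passed in either direction. Of the 37 differences 35 were above 0 (94.6%), against 53.9% over all genes. The median difference over the 37 was 0.15 (1.11-fold), against 0.0066 over all genes.

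Deviations from the group means correlated between samples of the same replicate number (r from 0.474 to 0.645). Samples of different numbers reached 0.602, so the pairing by number was an assumption. With the number as a block in the fit 24 of the 37 rose (64.9%) and 0 fell, where 18.2% of all genes were called higher and 13.9% lower. All 7 of the genes above were among the 24. In 14 genes (37.8%) the 4 pIGrhl2 samples all lay above the 4 pcDNA samples, against 14.3% of all genes. No member lay wholly below, against 9.47% of all genes. In 26 genes (70.3%) every pIGrhl2 sample was above the pcDNA sample of its number, against 27.3% of all genes. Without the block the count of 7 depended on single samples: it was 2 (Acly and Acacb) without pIGrhl2 replicate 1, 4 without pIGrhl2 replicate 3, 3 without pIGrhl2 replicate 4 and 3 without pcDNA replicate 1. Mvd, Tm7sf2 and Acat2 lost the call in each of these cases.

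**Figure D1:**
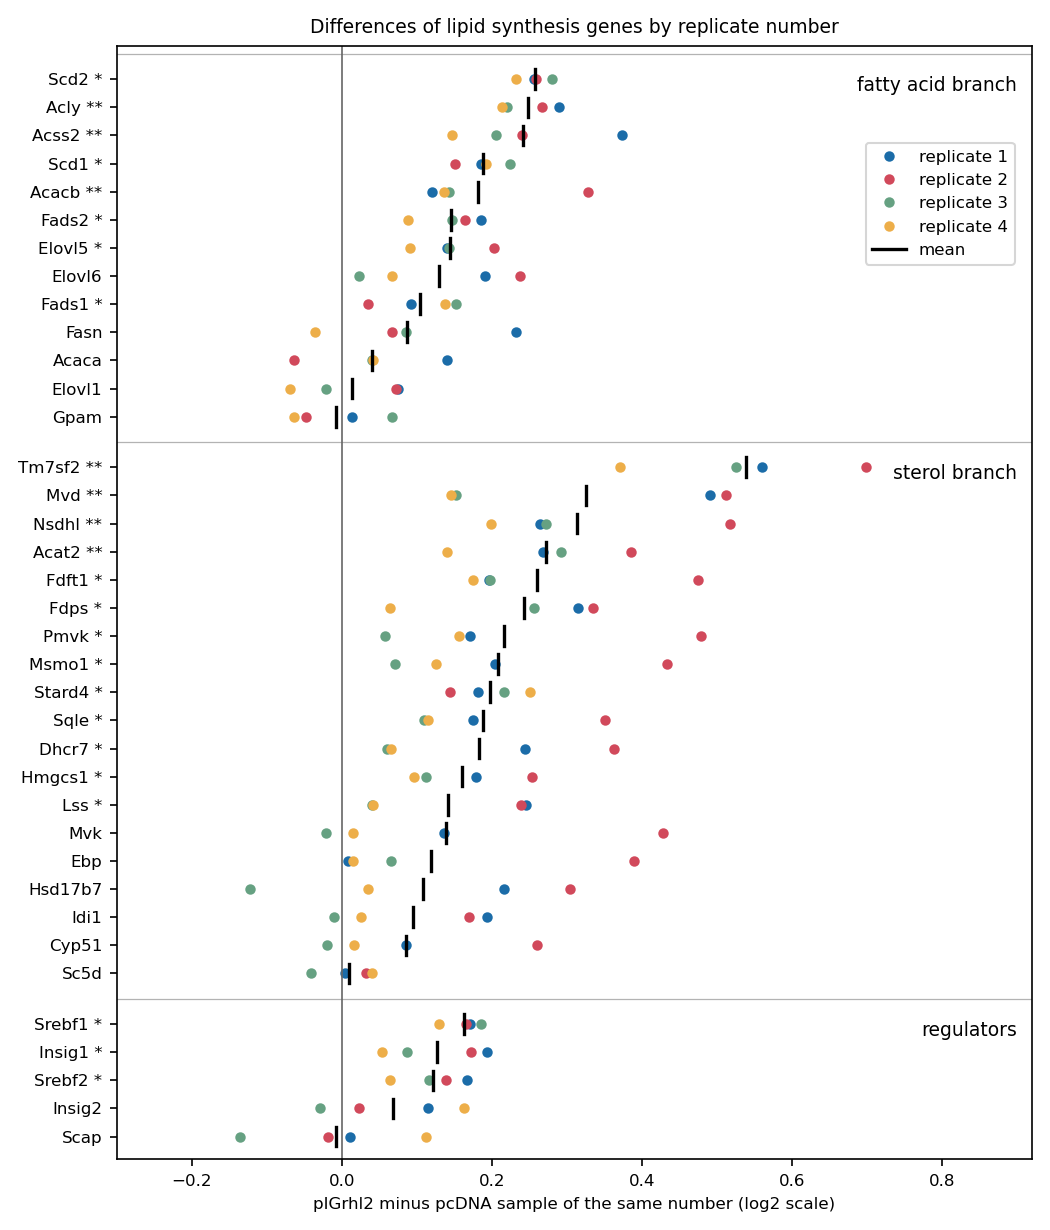
Difference between the pIGrhl2 and the pcDNA sample of the same replicate number (log2 scale, x axis) for each of the 37 genes (y axis), in 3 groups ordered by mean. Points are the 4 replicate numbers and the black line is the mean; 2 asterisks mark genes past adjusted p of 0.05 without the block and 1 asterisk those past it with the block but not without it. Of the 37 means, 35 lie right of 0.

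The regulators did not rise without the block (0 of 5, and 0 of 5 at an unadjusted p under 0.05), and 3 of them rose with it. Srebf1, which encodes SREBP-1, read 10.72, 10.67, 10.93 and 10.92 in pIGrhl2 samples 1 to 4 and 10.55, 10.50, 10.75 and 10.79 in the pcDNA samples. The groups overlapped, but every pair differed in the same direction, by 0.16 ± 0.08 on average (SE, adjusted p = 0.224, 0.00462 with the block). Srebf2, which encodes SREBP-2, read 11.86, 11.80, 11.96 and 11.96 against 11.69, 11.66, 11.85 and 11.89, a difference of 0.12 ± 0.06 (adjusted p = 0.226, 0.0153 with the block). Insig1, the anchor that is itself a target of SREBPs, read 11.07, 10.85, 11.14 and 11.10 against 10.87, 10.68, 11.05 and 11.05 (0.13 ± 0.09, adjusted p = 0.401, 0.026 with the block), and its difference was 0.047 without pcDNA replicate 2 and 0.19 without pIGrhl2 replicate 2. In all of these genes replicate 2 was the lowest of its group in both groups. Scap, the escort protein of the SREBPs, was at 9.82 ± 0.06 in pIGrhl2 and 9.83 ± 0.06 in pcDNA cells (SD, n = 4 each), and Insig2 at 9.98 ± 0.11 and 9.91 ± 0.03 (SD, n = 4 each), neither past the test in either fit. With the block and a correction for GC content, Srebf2 lost its call (adjusted p = 0.0656), while Srebf1 and Insig1 kept theirs (adjusted p = 0.0251 and 0.0162).

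In the sterol branch all 19 differences were above 0, from 0.0090 (Sc5d) to 0.54 (Tm7sf2), with a median of 0.19 (1.14-fold). Of the 19 genes 4 rose (21.1%, against 10.5% of all genes) and 13 rose with the block (68.4%, against 18.2%). In 10 the pIGrhl2 samples lay wholly above the controls (52.6%, against 14.3% of all genes). The first steps join acetyl-CoA units. Acat2, the cytosolic thiolase that makes acetoacetyl-CoA, read 10.26, 10.08, 10.23 and 10.19 in pIGrhl2 samples 1 to 4 and 9.99, 9.70, 9.94 and 10.05 in the pcDNA samples. The groups did not overlap, and the gene rose by 0.27 ± 0.08 (adjusted p = 0.0393, 0.00194 with the block). Hmgcs1, which makes HMG-CoA, read 12.02, 11.90, 11.99 and 11.98 against 11.84, 11.65, 11.88 and 11.89. These groups were apart by a narrow margin, and the difference of 0.16 ± 0.06 passed with the block but not without it (adjusted p = 0.0901, 0.00809 with the block), and was 0.11 without pcDNA replicate 2.

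The mevalonate steps follow. Mvd, the decarboxylase that makes isopentenyl diphosphate, read 9.57, 9.42, 9.45 and 9.42 in pIGrhl2 samples 1 to 4 and 9.08, 8.91, 9.29 and 9.28 in the pcDNA samples. It rose by 0.32 ± 0.09 (1.25-fold, adjusted p = 0.0285, 0.00732 with the block), with larger pair differences in replicates 1 and 2 (0.49 and 0.51) than in replicates 3 and 4 (both 0.15). Pmvk, phosphomevalonate kinase, read 9.64, 9.60, 9.56 and 9.57 against 9.47, 9.12, 9.50 and 9.41, with no overlap and a difference of 0.22 ± 0.08 (adjusted p = 0.0928, 0.0292 with the block), which was 0.13 without pcDNA replicate 2. Fdps, which makes farnesyl diphosphate, differed by 0.24 ± 0.07 (adjusted p = 0.053, 0.00718 with the block), with the highest pcDNA sample at 6.80 and the lowest pIGrhl2 sample at 6.76. The neighbouring steps were smaller: the mevalonate kinase Mvk differed by 0.14 and the isomerase Idi1 by 0.09, and neither passed in either fit.

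With all samples, squalene synthase and the enzymes that close the ring passed with the block and not without it. Fdft1, squalene synthase, read 10.76, 10.66, 10.81 and 10.74 in pIGrhl2 samples 1 to 4 and 10.57, 10.19, 10.61 and 10.56 in the pcDNA samples (0.26 ± 0.09, adjusted p = 0.0745, 0.00563 with the block). Sqle, squalene epoxidase, was nearly level across pIGrhl2 samples at 11.03, 11.00, 11.03 and 11.01, against 10.86, 10.65, 10.92 and 10.89 (0.19 ± 0.06, adjusted p = 0.0622, 0.0125 with the block). Lss, lanosterol synthase, read 9.91, 9.74, 9.69 and 9.67 against 9.66, 9.50, 9.65 and 9.63 (0.14 ± 0.06, adjusted p = 0.162, 0.0485 with the block). In all of these the groups did not overlap, and the pcDNA sample of replicate 2 was the lowest of the 8. Without pcDNA replicate 2 the differences were 0.16 for Fdft1, 0.13 for Sqle and 0.10 for Lss. Without the block Sqle passed with equal upper quartiles (adjusted p = 0.0419) and Fdft1 without both samples numbered 2 (adjusted p = 0.0238). The call of Lss with the block was lost with the correction for GC content (adjusted p = 0.0528) and without both samples numbered 2 (adjusted p = 0.0988).

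Tm7sf2, a sterol reductase acting just after lanosterol demethylation, had the largest difference of the 37 genes. It read 9.29, 9.16, 9.48 and 9.53 in pIGrhl2 samples 1 to 4 and 8.73, 8.46, 8.96 and 9.16 in the pcDNA samples, where the highest control (replicate 4) met the lowest pIGrhl2 sample (replicate 2). Within pairs it was higher by 0.56, 0.70, 0.52 and 0.37, and it rose by 0.54 ± 0.14 (1.45-fold, adjusted p = 0.0281, 0.000175 with the block). Its exons share 532 of 4403 bases with Vps51 on the same strand, and Vps51 differed by 0.10 (adjusted p = 0.317). Nsdhl, a dehydrogenase that helps remove the methyl groups of lanosterol, read 10.51, 10.41, 10.46 and 10.39 against 10.25, 9.90, 10.19 and 10.19. It rose by 0.31 ± 0.08 (1.24-fold, adjusted p = 0.0197, 0.00226 with the block) with no overlap.

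Msmo1, the methylsterol oxidase, read 12.03, 11.99, 11.95 and 11.93 in pIGrhl2 samples 1 to 4 and 11.83, 11.56, 11.88 and 11.81 in the pcDNA samples (0.21 ± 0.07, adjusted p = 0.0602, 0.0182 with the block). Dhcr7, a reductase of the last steps to cholesterol, read 9.12, 8.95, 8.99 and 8.98 against 8.87, 8.58, 8.93 and 8.92 (0.18 ± 0.08, adjusted p = 0.15, 0.0327 with the block). Both were without overlap between groups. Without pcDNA replicate 2 the difference of Dhcr7 was 0.10, and its call with the block was lost without both samples numbered 2 (adjusted p = 0.0653). Stard4, a sterol carrier rather than an enzyme, differed by 0.20 ± 0.08 in overlapping groups (adjusted p = 0.13, 0.00291 with the block). The lanosterol demethylase Cyp51, the ketoreductase Hsd17b7, the isomerase Ebp and the desaturase Sc5d passed in neither fit, with differences of 0.09, 0.11, 0.12 and 0.0090. Without pcDNA replicate 2 the difference of Ebp was 0.018 and that of Cyp51 0.03.

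**Figure D2:**
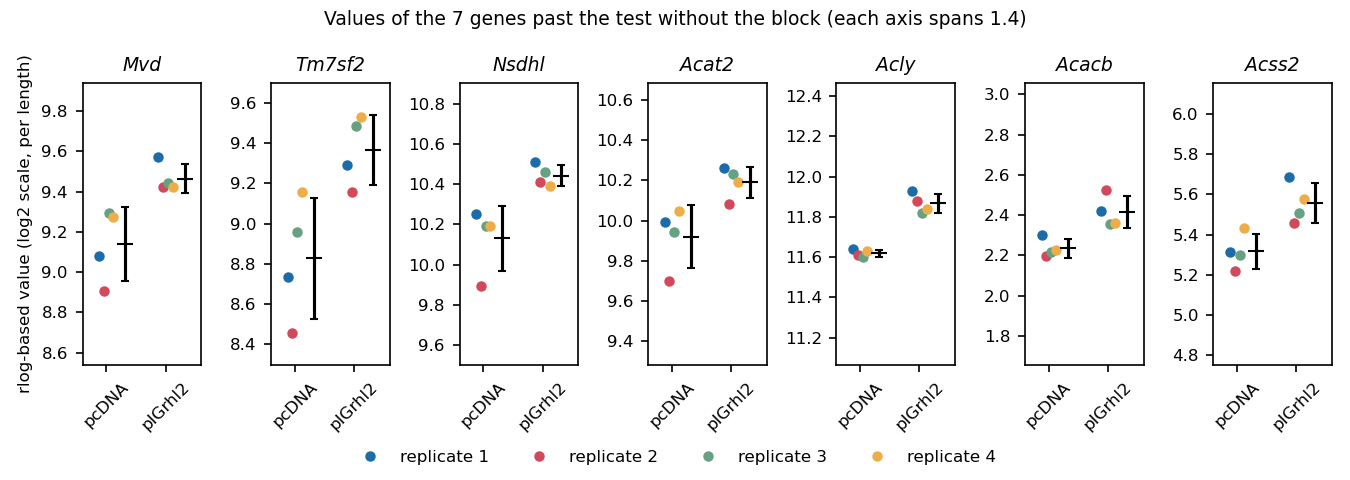
Values of the 7 genes that rose (y axis, log2 scale per transcript length, each panel spanning 1.4) in the 4 pcDNA and 4 pIGrhl2 samples, coloured by replicate number, with mean and SD in black. The groups touch only in Tm7sf2, where both extremes are 9.16, and Acly has the tightest controls, from 11.60 to 11.64.

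In the fatty acid branch 12 of 13 differences were above 0, from -0.0081 (Gpam) to 0.26 (Scd2), with a median of 0.14 (1.11-fold). Of the 13 genes 3 rose (23.1%, against 10.5% of all genes) and 8 rose with the block (61.5%, against 18.2%). The sources of cytosolic acetyl-CoA were among them. Acly, which makes acetyl-CoA from citrate, read 11.93, 11.88, 11.82 and 11.84 in pIGrhl2 samples 1 to 4 and 11.64, 11.61, 11.60 and 11.63 in the pcDNA samples. The gap between the groups was wider than the spread within either, and Acly rose by 0.25 ± 0.04 (1.19-fold, adjusted p = 0.00268, 0.000489 with the block). Leaving out any 1 sample left Acly past the test, with adjusted p from 0.00494 to 0.0118. Acss2, which makes acetyl-CoA from acetate, read 5.69, 5.46, 5.51 and 5.58 against 5.31, 5.22, 5.30 and 5.43, and rose by 0.24 ± 0.06 (adjusted p = 0.0226, 0.00379 with the block). Its call without the block was lost when pIGrhl2 replicate 1 or 4, or pcDNA replicate 1, 2 or 3, was left out (adjusted p from 0.0539 to 0.0597).

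Of the carboxylases and the synthase that follow, Acacb rose and Acaca and Fasn passed in neither fit. Acacb, the mitochondrial acetyl-CoA carboxylase and the lowest of the 37 genes in level, read 2.42, 2.52, 2.36 and 2.36 in pIGrhl2 samples 1 to 4 and 2.30, 2.196, 2.22 and 2.23 in the pcDNA samples, and rose by 0.18 ± 0.04 (adjusted p = 0.0123, 0.00559 with the block, and 0.0543 with a correction for GC content). Acaca, the cytosolic carboxylase, read 9.54, 9.33, 9.42 and 9.39 against 9.40, 9.39, 9.38 and 9.35, in overlapping groups (0.04 ± 0.05, adjusted p = 0.66, 0.513 with the block). Fasn, the synthase that builds palmitate, read 12.05, 11.90, 11.85 and 11.76 against 11.82, 11.83, 11.77 and 11.80. The pIGrhl2 samples straddled the controls, and the difference of 0.09 ± 0.06 passed in neither fit (adjusted p = 0.352, 0.152 with the block).

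In the stearoyl-CoA desaturases the spread over replicate numbers was wider than the difference between plasmids. Scd1, which puts the double bond into stearate and palmitate, read 10.21, 9.78, 10.46 and 10.54 in pIGrhl2 samples 1 to 4 and 10.02, 9.63, 10.23 and 10.35 in the pcDNA samples. The order of the replicates was the same in both groups, with replicate 2 lowest and replicate 4 highest, and the pair differences lay between 0.15 and 0.22, so the difference of 0.19 ± 0.19 passed with the block but not without it (adjusted p = 0.541, 0.003 with the block). It was 0.044 without pcDNA replicate 2 and up to 0.34 with another sample, pIGrhl2 replicate 2, left out. Scd2, its paralog and the highest of the 37 genes in level, read 13.79, 13.62, 13.93 and 13.96 against 13.53, 13.36, 13.64 and 13.73, with a difference of 0.26 ± 0.09 (adjusted p = 0.0862, 0.00013 with the block). Reads shared by these paralogs could be split or lost in counting. Of the elongases, Elovl6, which lengthens palmitate, read 10.15, 10.01, 9.97 and 9.98 against 9.96, 9.77, 9.95 and 9.91, with no overlap but no call in either fit (0.13 ± 0.06, adjusted p = 0.173, 0.0507 with the block). The block called Elovl5 (0.14), Fads1 (0.10) and Fads2 (0.15), which serve polyunsaturated fatty acids. Fads1 lost that call with the correction for GC content (adjusted p = 0.0687), and without pcDNA replicate 2 the differences of Fads1 and Elovl5 were 0.046 and 0.091. Elovl1, of very long chains, and Gpam, which starts glycerolipid assembly, differed by 0.014 and -0.0081 and passed in neither fit.

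The median of each group of genes, after centring every gene on its mean over the 8 samples, placed each sample on 1 scale. For the sterol branch it was 0.16, 0.06, 0.09 and 0.08 in pIGrhl2 samples 1 to 4 and -0.05, -0.31, -0.0080 and -0.02 in the pcDNA samples. For the fatty acid branch it was 0.10, -0.02, 0.08 and 0.08 against -0.06, -0.19, -0.02 and -0.0058. The sterol groups did not overlap, whereas pIGrhl2 replicate 2 fell within the range of the fatty acid controls. The pcDNA sample of replicate 2 was the lowest control for 31 of the 37 genes, 18 of 19 in the sterol branch and 9 of 13 in the fatty acid branch, and pIGrhl2 replicate 2 was the lowest of its group for 20 of 37. Within pairs the median difference of the sterol genes was 0.20, 0.36, 0.07 and 0.10 for replicates 1 to 4, and 19, 19, 14 and 19 of the 19 genes were higher. For the fatty acid genes it was 0.19, 0.16, 0.14 and 0.09, and 13, 11, 12 and 10 of the 13 genes were higher. Without pcDNA replicate 2 the branch medians were 0.13 and 0.09, and 6 of the 37 genes rose: Tm7sf2 and Acss2 lost the call (adjusted p = 0.0504 and 0.058) and Msmo1 gained it (adjusted p = 0.0469). Without both samples numbered 2 they were 0.13 and 0.13, with 11 genes risen, and 22 with the block.

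**Figure D3:**
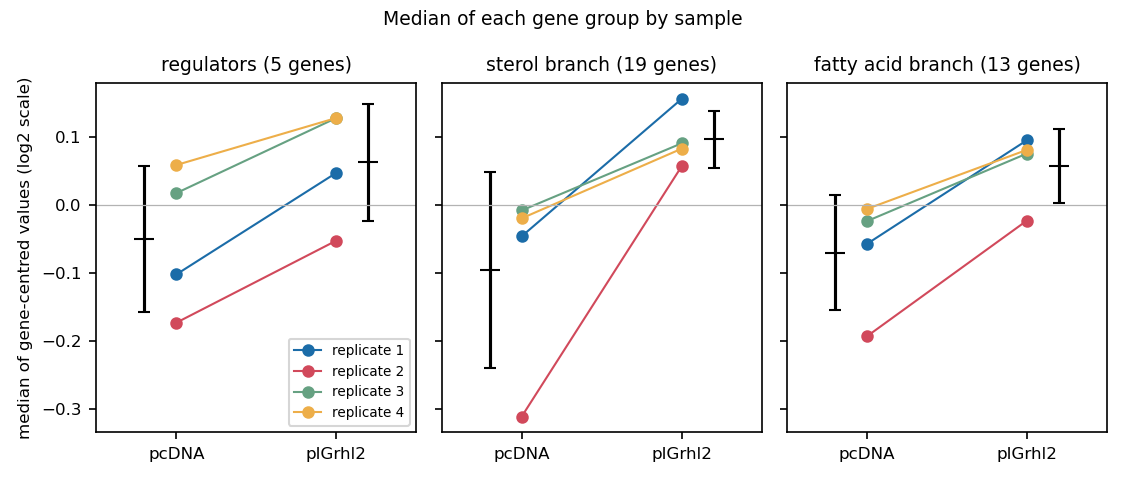
Median of gene-centred values (log2 scale, y axis) of the 5 regulators, 19 sterol genes and 13 fatty acid genes in each sample, with lines joining samples of the same replicate number and black marks for mean and SD of 4 samples. Every line climbs from pcDNA to pIGrhl2, and the sterol line of replicate 2 starts at -0.31.

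The sterol genes also varied together within groups. After each group's mean was removed, the median Pearson correlation between pairs of sterol genes over the 8 samples was 0.751, against 0.325 between pairs of fatty acid genes and 0.48 between the branches. Dhcr7 had the highest median correlation with the rest of its branch (0.91) and Hsd17b7 the lowest (-0.0237). Acly, the most clearly separated member, had a median correlation of 0.0208 with the other fatty acid genes, and Acacb one of -0.284. These are descriptions over 8 samples that were taken as pairs by replicate number. The pcDNA sample of replicate 2 was the lowest control for 18 of the 19 sterol genes, all but Hsd17b7. The part of that 1 sample in these correlations was not tested.

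Among genes that process the SREBPs or turn over their partners, the few calls were on the lower side. Of 11 such genes 0 rose and 2 fell, against 10.5% and 5.91% of all genes. With the block 3 fell, where 13.9% of all genes did. At an unadjusted p under 0.05 there were 3 (27.3%), against 31.0% of all genes. The median difference of the list was -0.015, against 0.0066 over all genes. Ube2g2, a ubiquitin-conjugating enzyme of degradation at the endoplasmic reticulum, read 10.31, 10.20, 10.20 and 10.22 in pIGrhl2 samples 1 to 4 and 10.46, 10.63, 10.46 and 10.36 in the pcDNA samples, and fell by 0.25 on the log2 scale (SE 0.06, adjusted p = 0.0234). Pgrmc1, a heme-binding membrane protein, read 11.05, 11.00, 11.04 and 11.01 against 11.28, 11.33, 11.18 and 11.22, and fell by 0.23 (SE 0.05, adjusted p = 0.00896). The other gene with the block was Erlin1, of the same degradation route (-0.17, adjusted p = 0.00708 with the block). In both Ube2g2 and Pgrmc1 all pIGrhl2 samples lay below all controls.

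Of 8 isoprenoid and late sterol genes reported here, 0 rose and 0 fell, against 10.5% and 5.91% of all genes. There was 1 at an unadjusted p under 0.05, and the median was -0.04. With the block Pdss1, of ubiquinone synthesis, and Nus1, of dolichol synthesis, fell (-0.23 and -0.14, adjusted p = 0.00156 and 0.0124), where 13.9% of all genes did. Of 11 genes of sterol uptake, storage and transport, 1 rose (9.09%, against 10.5% of all genes) and 2 with the block (18.2% of the list and of all genes). Gramd1c, of the Aster family that moves cholesterol from the plasma membrane, rose by 0.23 ± 0.06 (adjusted p = 0.0252). With the block Gramd1b also rose (0.12, adjusted p = 0.0321, and 0.0562 with the GC correction as well). Of 8 genes of LXR signalling, sterol efflux and oxysterols, 1 rose (12.5%, against 10.5% of all genes). It was Cyp46a1, a cholesterol hydroxylase at low level (0.07 ± 0.02, adjusted p = 0.0343), and its difference was 0.037 with the correction for GC content (adjusted p = 0.233). With the block the count was 4 (50.0%, against 18.2% of all genes), with Abca1, Nr1h2 and Lpcat3 (adjusted p = 0.0373, 0.0281 and 0.000763). Of these 4, Nr1h2 and Cyp46a1 lost the call with the block and the GC correction (adjusted p = 0.2 and 0.192). Abca1 was also at low level, with means of 0.57 in pIGrhl2 and 0.52 in pcDNA cells and a difference of 0.06.

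Among the lipid genes examined, the largest change was that of Dgat2, and it was not shared across triglyceride assembly. Of 25 other genes of fatty acid and triglyceride metabolism, 6 rose (24.0%) and 0 fell, against 10.5% and 5.91% of all genes. The share that rose was near those of the sterol and fatty acid branches (21.1% and 23.1%). A raised share was thus not particular to the 37 genes. With the block 12 of the 25 rose and 1, Lpin1, fell, against 18.2% and 13.9% of all genes. At an unadjusted p under 0.05 there were 10 of the 25, against 31.0% of all genes. Of the 25 differences 21 were above 0, against 53.9% over all genes. Dgat2, which catalyses the last step of triglyceride synthesis, read 8.85, 9.01, 8.86 and 9.02 in pIGrhl2 samples 1 to 4 and 8.02, 8.14, 8.25 and 8.35 in the pcDNA samples. It rose by 0.74 ± 0.08 (1.68-fold, adjusted p = 0.000329), with every pIGrhl2 sample well above every control. Other genes of triglyceride assembly did not follow Dgat2. Agpat2, Dgat1 and Gpam differed by 0.12, 0.06 and -0.0081 and passed in neither fit. Lpin1 differed by -0.21 and passed only with the block. Elovl7, an elongase of saturated chains, read 8.82, 8.84, 8.94 and 9.05 against 8.65, 8.51, 8.76 and 8.76, and rose by 0.25 ± 0.07 (adjusted p = 0.0451). Of 14 genes of fatty acid oxidation 1 rose (7.14%, against 10.5% of all genes). It was Acadvl, the acyl-CoA dehydrogenase of very long chains (0.28 ± 0.05, adjusted p = 0.00769), and with the block Slc25a20 and Acaa2 rose as well (21.4%, against 18.2% of all genes). Of 14 lipid droplet genes 2 rose (14.3%) and 1 fell, against 10.5% and 5.91% of all genes. Lipe, hormone-sensitive lipase, rose by 0.35 ± 0.06 (adjusted p = 0.00328) and Cidea, a droplet protein, by 0.11 ± 0.03 at a level near 2.02 in controls (adjusted p = 0.0179, and 0.0794 with the GC correction). Bscl2, seipin, read 7.67, 7.83, 7.59 and 7.51 against 8.01, 8.28, 7.90 and 8.004, and fell by 0.40 on the log2 scale (SE 0.09, adjusted p = 0.0153). With the block Plin3 and Pnpla2 also rose (28.6% of the list higher, against 18.2% of all genes) and Fitm2 also fell. Plin3 lost that call with the GC correction as well (adjusted p = 0.0502). Leaving out single samples took the calls without the block of Ube2g2, Gramd1c, Cyp46a1, Elovl7 and Cidea past the threshold, with the highest adjusted p at 0.0614, 0.0735, 0.0812, 0.11 and 0.0508. Cidea and the genes of the neighbouring lists that passed with the block but not without it were named after their values were seen.

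**Figure D4:**
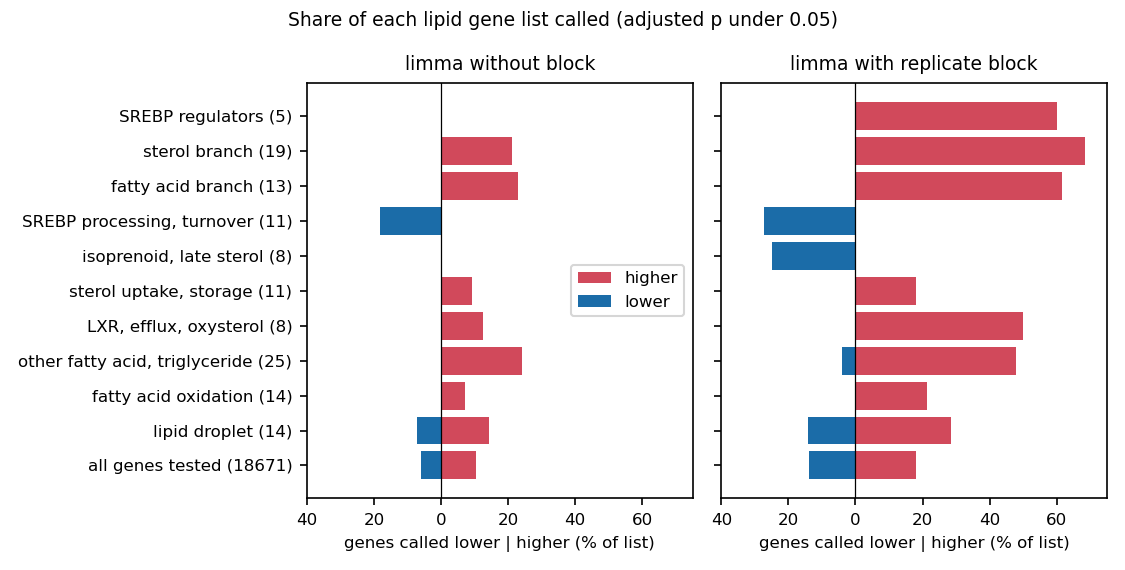
Share of each lipid gene list called higher (red, right) or lower (blue, left) at adjusted p under 0.05 (x axis, % of the list), without the block and with it. Numbers in parentheses are genes measured, and the isoprenoid and late sterol list leaves out 1 gene, so its balance of higher and lower calls is not that of the whole list. The sterol branch reaches 68.4% higher with the block, where all genes reach 18.2%, and the list of SREBP processing and turnover has calls on the lower side only.

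Markers of the biliary lineage moved with these genes. All 5 biliary markers were higher in every pair, 2 of them rose and 5 rose with the block. Epcam read 8.13, 8.31, 8.13 and 8.14 in pIGrhl2 samples 1 to 4 and 6.40, 6.40, 6.42 and 6.51 in the pcDNA samples (1.75 ± 0.05, adjusted p = 4.59e-07), and Krt7 differed by 0.44 ± 0.07 (adjusted p = 0.00201). Of 5 hepatoblast and hepatocyte markers Afp fell by 0.21 (SE 0.05, adjusted p = 0.0124) and none rose, with 1 at an unadjusted p under 0.05. Of 3 mesenchymal markers Pdgfrb rose (33.3%, against 10.5% of all genes), by 0.11 from a level of -0.24 to -0.22 in controls. Of 3 endothelial and 2 blood markers 0 passed without the block. At an unadjusted p under 0.05 there were 2 and 1 (66.7% and 50.0%, against 31.0% of all genes). With the block the mesenchymal Col1a1 (0.13, adjusted p = 0.0281, and 0.0521 with the GC correction as well) and the endothelial Kdr (0.13, adjusted p = 0.0411) also rose, and 0 of 2 blood markers did. That made 66.7% of the mesenchymal and 33.3% of the endothelial markers higher with the block, against 18.2% of all genes. The part of these shifts in the values of the lipid genes was not tested. Exons of Fdft1 share 774 of 4227 bases with Ctsb on the opposite strand (Ctsb differed by -0.04), those of Fdps 1124 of 4208 with Gm43738, those of Scap 985 of 7443 with 5830462I19Rik, and those of Acss2 395 of 10163 with Gss, and reads there could not be told apart by strand.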

How the data were processed

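RNA-seq libraries of BMEL cells, 4 with pIGrhl2 and 4 with pcDNA, were grouped by the labels. The submitters' processing notes name HISAT2 2.2.1, HTSeq 0.9.1 and DESeq2 1.40.2, with the builds mm10 and GRCm39. Per the study's methods, reads were counted over exons without strand and genes under 10 reads were dropped. The authors deposited values on a log2 scale (an rlog transform less the log2 of transcript length), although the table is named for FPKM: values ran from -2.85 to 18.01 and 4.81% were below 0. Counts were not used here, so depth and counting error are unknown, and rlog shrinks differences of low genes. limma 3.58.1 (R 4.3.3), with a variance trend and no pseudocount, was fitted to all 18671 genes and Benjamini-Hochberg adjustment applied over all of them. It was tested on simulated data with independent noise in each sample and planted differences larger than those of most members. Effects shared by a replicate number were not covered by that test. Replicate numbers of the labels were taken as pairs, because deviations from the group means correlated within every number (r from 0.474 to 0.645), although those of different numbers reached 0.602. The study describes the replicates as independent. Members, lists and tests were chosen with earlier results of these data known. All 37 members were accounted for. Named individually were those called, those without overlap, the regulators and 8 core enzymes, and up to 2 called genes per neighbouring list. The counts of the isoprenoid and late sterol list leave out 1 gene that is not reported here. Exon overlaps came from GENCODE M21. Alternatives were the block, scaling, a mean filter, no trend, a GC correction and left-out samples.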

Additional observations from a re-analysis of the deposited data

Results flagged for a closer look

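Within groups of 4 samples, 6 of 80 groups had a highest or lowest sample set far from the others, where chance gives about 1 in 20. The pcDNA sample of replicate 2 was the low sample in 4 of them: Fdft1 at 10.19 (next control 10.56), Nsdhl at 9.90 (next 10.19), Ebp at 10.25 (next 10.63) and the sterol branch median at -0.31 (next -0.05). Mvd was high in pIGrhl2 replicate 1, at 9.57 with the next sample at 9.45. The fatty acid branch median was low in pIGrhl2 replicate 2, at -0.023 with the next sample at 0.08.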

How the results depend on the processing

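The count of 7 genes called higher was 24 with the replicate block, ranged from 2 to 9 with 1 sample left out, and was 3 with replicates 1 and 2, 15 with replicates 3 and 4, and 11 without both samples numbered 2 (22 with the block). With a GC correction it was 6 (22 with the block). It was 10 with equal upper quartiles, where 16.4% of all genes were called higher (10.5% as reported), 5 with equal medians (5.99%), 7 with a mean of at least 0 (10.6%), and 5 without the variance trend (8.82%). No setting run called a member lower. The settings that keep only replicates 1 and 2 or 3 and 4, drop both samples numbered 2 or correct for GC were chosen after seeing the data. The sterol median of 0.19 was 0.28 with replicates 1 and 2, and ranged from 0.13 to 0.22 with 1 sample left out. The fatty acid median of 0.14 ranged from 0.09 to 0.18. The share of higher among all calls was 63.9%, 75.9% with equal upper quartiles and 47.1% with equal medians. Acly stayed called in every setting. Acat2 and Acacb lost the call with equal medians (adjusted p = 0.0581 and 0.0577), and Tm7sf2 and Acat2 without the trend (0.0503 and 0.0524). Small differences changed sign: with equal upper quartiles Scap 0.014 and Gpam 0.014, with equal medians Sc5d -0.021 and Elovl1 -0.016, with replicates 3 and 4 Mvk -0.0037, Cyp51 -0.0022, Hsd17b7 -0.044, Sc5d -0.00043, Elovl1 -0.046 and Gpam 0.0010, without both samples numbered 2 (with or without the block) Elovl1 -0.0056 and Gpam 0.0050, and with the GC correction (with or without the block) Elovl1 -0.0035. With 1 sample left out, Acaca ran from -0.0018 to 0.071, Elovl1 from -0.015 to 0.044, Scap from -0.035 to 0.018, Sc5d from -0.031 to 0.041 and Gpam from -0.038 to 0.011. The cause of these changes was not tested. Depth was not known, so its limit on low genes such as Acacb could not be given.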
